A study of Homo sapiens with 12 samples.

Results

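The genes described here encode the proteins that divide, fuse, fold and dispose of mitochondria. They were 33 genes taken by name from a TPM table of 20307 Ensembl identifiers, with older symbols allowed: 13 fission genes, 10 fusion genes, 5 cristae genes and 5 mitophagy genes. Each of the 33 matched 1 identifier, and all 33 were among the 13645 identifiers with at least 1 TPM in at least 2 of the 12 libraries, which were the ones tested. Messenger RNA was sequenced from 2 established human liver cancer cell lines, Hep3B and Huh7. Hep3B cells were given lenvatinib at 20 µM, WWL70 at 20 µM, or WWL70 at 20 µM together with an unstated dose of lenvatinib, and were set against untreated Hep3B controls. Lenvatinib-resistant Huh7 cells were set against Huh7 controls. Each of these 6 groups held 2 libraries, A1 and B1, with no exposure time and no statement that they came from separate cultures, so p-values cover the spread between these libraries alone, and that spread may be technical. The labels do not say how the resistant cells were selected or whether they were a single clone. Lenvatinib is a kinase inhibitor used in liver cancer that acts on VEGF and FGF receptors among others, and WWL70 inhibits the lipid hydrolase ABHD6.

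Mitochondria form a network whose shape is set by opposing dynamin-like GTPases. DRP1, the product of DNM1L, is recruited from the cytosol by outer membrane adaptors and constricts the organelle, while the mitofusins join outer membranes and OPA1 joins inner membranes and holds cristae closed. The MICOS complex bends the inner membrane at the necks of cristae, and damaged or surplus mitochondria are marked for autophagy by the kinase PINK1 or by receptors such as BNIP3 and BNIP3L. Liver cells are rich in mitochondria, and several of these genes, BNIP3 among them, are known targets of hypoxia-inducible factors.

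TPM values sum to 1000000 in every library, so they give levels per transcript length and carry no record of sequencing depth. A fall in TPM can reflect fewer cells expressing a gene, less of its RNA per cell or a rise of other RNAs. These cannot be told apart in bulk RNA. Hepatocyte markers were detected in every library (ALB between 10323 and 37468 TPM), although AFP averaged 50.3 TPM in untreated Hep3B and 13200 TPM in untreated Huh7. Of 11 markers of endothelial cells, fibroblasts and leukocytes, VWF, DCN, PTPRC and CD3E stayed below 0.6 TPM and CDH5 reached 1.11 TPM. PECAM1 reached 11.9, COL3A1 10.4, PDGFRB 10.4, COL1A1 7.87, CD14 7.53 and LYZ 549 TPM. Within a group, A1 and B1 lay a median of 0.11 to 0.32 apart on the log2(TPM + 1) scale in 5 groups and 0.755 apart in the combination group, where library A1 stood apart. In combination A1 the median tested gene lay 0.581 below the Hep3B control mean, against 0.08 below it in combination B1. Levels with the combination are therefore given for A1 and B1 apart. ABHD6 averaged 7.84 ± 0.19 TPM with lenvatinib, 10.4 ± 0.4 TPM with WWL70, 3.18 TPM in combination A1 and 7.35 TPM in combination B1, and 8.08 ± 0.21 TPM in Hep3B controls, and 8.48 ± 0.41 TPM in resistant and 5.78 ± 0.29 TPM in control Huh7 (SD, n = 2 each). It was not called in any comparison.

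Most of the 33 genes were well expressed in both lines. The prohibitin PHB2 was the most abundant, between 238 and 460.7 TPM. PHB1, DNM2, STOML2, IMMT and MFF averaged over 100 TPM across the 12 libraries, at 150, 145, 133, 125 and 103 TPM. The least abundant were GDAP1, an outer membrane fission factor, at 5.42 TPM, and the MICOS subunit APOOL at 5.69 TPM. Together the 33 genes made up 0.196% to 0.242% of the TPM of a library. Their summed level was highest in Huh7 controls, at 0.242% and 0.238%, and was 0.202% and 0.203% in resistant Huh7.

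Promoter sequences are shown for BNIP3, which was called in more comparisons than any other member, for MIEF2, which differed both with resistance and between the lines, and for APOOL, which was listed at 0 in Huh7. They come from RefSeq on GRCh38.p14, 250 bases before to 50 after the start. The windows are chr10:131981874-131982173 (minus strand) for BNIP3, chr17:18260412-18260711 (plus strand, the first of 2 starts listed) for MIEF2 and chrX:85003627-85003926 (plus strand) for APOOL. Capitals mark ACGTG, a form of the core of the element bound by hypoxia-inducible factors, or its reverse complement CACGT. The form GCGTG was not searched or marked.
BNIP3 promoter: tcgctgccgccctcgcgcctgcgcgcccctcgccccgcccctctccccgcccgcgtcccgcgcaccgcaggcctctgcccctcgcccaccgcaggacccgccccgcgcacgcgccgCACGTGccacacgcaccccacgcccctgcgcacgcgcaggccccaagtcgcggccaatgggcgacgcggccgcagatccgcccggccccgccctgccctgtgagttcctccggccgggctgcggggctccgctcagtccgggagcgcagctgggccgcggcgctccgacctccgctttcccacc
MIEF2 promoter: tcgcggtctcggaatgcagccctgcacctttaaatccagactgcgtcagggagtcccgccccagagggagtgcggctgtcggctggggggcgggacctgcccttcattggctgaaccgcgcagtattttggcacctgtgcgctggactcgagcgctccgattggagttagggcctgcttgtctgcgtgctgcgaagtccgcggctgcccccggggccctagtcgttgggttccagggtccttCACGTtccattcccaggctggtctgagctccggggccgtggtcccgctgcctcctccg
APOOL promoter: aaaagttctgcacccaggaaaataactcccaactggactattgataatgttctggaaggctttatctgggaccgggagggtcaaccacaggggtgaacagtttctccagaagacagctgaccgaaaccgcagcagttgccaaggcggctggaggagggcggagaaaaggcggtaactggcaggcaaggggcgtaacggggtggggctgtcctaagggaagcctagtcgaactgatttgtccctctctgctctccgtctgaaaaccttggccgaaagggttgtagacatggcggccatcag
The BNIP3 window holds 2 matches that overlap in the palindrome CACGTG, 48 CpG dinucleotides and 80.7% G and C. The MIEF2 window holds 1 match, 25 CpG and 66.3% G and C, and the APOOL window holds no match, 12 CpG and 55.0% G and C. The motif, searched on both strands, occurs in 21.4% of the 35116 promoters of the table and in 8 of 39 promoters listed for 28 of the members (20.5%). A match describes the letters in the window only.

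**Figure D1:**
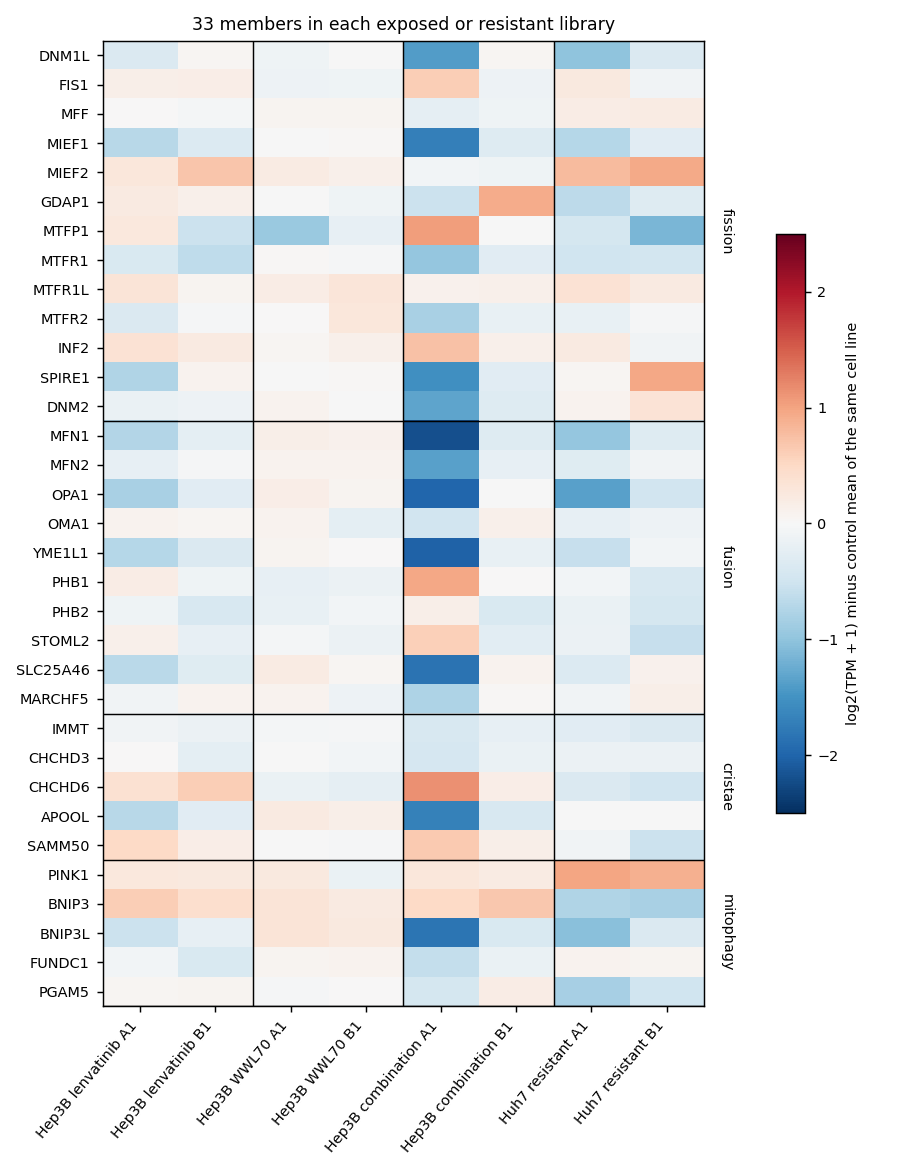
Change of each of the 33 genes in each exposed or resistant library, as log2(TPM + 1) minus the control mean of the same cell line (colour scale, red higher, blue lower), with rows grouped by role and columns by group. Combination A1 holds the deepest falls, down to -2.20 for MFN1, while combination B1 stays between -0.39 and 0.94; PINK1 and MIEF2 are red and BNIP3 is blue in both resistant libraries.

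The first question was which of these genes differed in lenvatinib-resistant Huh7. Resistant cells carried more PINK1 and MIEF2 mRNA and less BNIP3 mRNA than Huh7 controls, and these 3 members passed the test. At an adjusted p under 0.05 (limma, Benjamini-Hochberg over all tested genes), 3 of 33 members were called, a share of 9.09%, against 18.9% of all tested genes. Libraries of the 2 groups did not overlap for 7 members that were higher in resistant cells and for 18 that were lower, against 31.0% and 36.7% of all tested genes.

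PINK1, the kinase that accumulates on depolarised mitochondria and marks them for mitophagy (gene at chr1:20633455-20651511, GENCODE 29 on GRCh38), had 36.9 and 34.0 TPM in resistant libraries, against 18.7 and 17.4 TPM in controls. The lowest resistant library lay well above the highest control library. The ratio of means was 1.97, and the log2 change was 0.94 with an SE of 0.19 (adjusted p = 0.00896).

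MIEF2 encodes MiD49, an outer membrane adaptor that recruits DRP1. It had 12.5 and 14.0 TPM in resistant libraries and 7.09 and 6.55 TPM in controls, again without overlap. The ratio of means was 1.94, with a log2 change of 0.86 (SE 0.21, adjusted p = 0.0195). Its paralog MIEF1, which encodes MiD51, had 25.7 and 35.1 TPM in resistant and 42.4 and 43.3 TPM in control libraries, a change that was not called (log2 change -0.50, adjusted p = 0.43). The ratio of MIEF2 to MIEF1 was thus 0.486 and 0.399 in resistant libraries and 0.167 and 0.151 in controls.

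BNIP3 is a receptor that tethers mitochondria to LC3 on the forming autophagosome (chr10:131966455-131982013, minus strand). It had 132 and 125 TPM in resistant libraries, against 214 and 229 TPM in controls. Both resistant libraries were below both controls, the ratio of resistant to control means was 0.579, and the log2 change was -0.78 (SE 0.15, adjusted p = 0.00637). Its relative BNIP3L, also known as NIX, had 44.7 and 72.9 TPM in resistant libraries and 86.8 and 100.7 TPM in controls and was not called (log2 change -0.70, SE 0.42, adjusted p = 0.305). The other mitophagy members were not called either. FUNDC1, an outer membrane receptor, had 30.6 and 30.3 TPM in resistant and 28.4 and 28.9 TPM in control libraries. PGAM5, a phosphatase that acts on FUNDC1 in mammalian cells, had 26.0 and 32.9 TPM in resistant and 49.5 and 44.5 TPM in control libraries (log2 change -0.66, SE 0.22, adjusted p = 0.0692).

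No fusion gene was called in resistant cells. Of 10, 9 had a negative log2 change, and the median over the 10 was -0.27 beside -0.06 over all tested genes. Libraries did not overlap with controls for 7 of the 10, all lower, against 36.7% of all tested genes that were lower without overlap. The steepest was OPA1, the inner membrane fusion GTPase, at 18.0 and 34.1 TPM in resistant and 48.2 and 47.4 TPM in control libraries (log2 change -0.92, SE 0.55, adjusted p = 0.299). Resistant A1 was the lower of the pair. In resistant A1 Spearman's rho of the deviation from the control mean against transcript length was -0.30 over all tested genes and -0.11 over the 33 members, against 0.06 and 0.38 in resistant B1, and the part of length in these falls was not tested. MFN1, an outer membrane fusion GTPase, had 20.8 and 32.9 TPM in resistant and 41.3 and 41.8 TPM in control libraries, while its partner MFN2 averaged 65.6 ± 7.4 TPM in resistant and 75.1 ± 3.4 TPM in control cells (SD, n = 2 each). Neither passed the test, with adjusted p of 0.439 and 0.722.

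The proteases OMA1 and YME1L1, which cleave OPA1, showed no call. OMA1 averaged 14.4 ± 0.6 TPM in resistant cells and 16.3 ± 0.1 TPM in controls, and YME1L1 averaged 88.7 ± 22.6 TPM in resistant cells and 109 ± 8 TPM in controls. The prohibitins PHB1 and PHB2 form a ring-shaped scaffold in the inner membrane. PHB1 averaged 160 ± 26 TPM in resistant cells and 188 ± 10 TPM in controls, and PHB2 averaged 262 ± 35 TPM in resistant cells and 323 ± 8 TPM in controls. Their partner STOML2 averaged 116 ± 25 TPM in resistant cells and 148 ± 6 TPM in controls. The outer membrane protein SLC25A46 averaged 23.2 ± 5.3 TPM in resistant and 25.0 ± 0.6 TPM in control cells, and the ubiquitin ligase MARCHF5 averaged 20.0 ± 2.5 TPM in resistant and 19.4 ± 0.7 TPM in control cells (SD, n = 2 each).

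Of the 5 cristae genes none was called. All 5 log2 changes were negative (median -0.31, beside -0.06 over all tested genes). APOOL is among these 5 but was near 0 TPM in both groups, so its sign gives no direction. IMMT, which encodes the MICOS core subunit mitofilin, had 122 and 115 TPM in resistant libraries and 148 and 149.8 TPM in controls (log2 change -0.33, SE 0.13, adjusted p = 0.134). CHCHD3 averaged 84.1 ± 0.4 TPM in resistant and 93.0 ± 3.2 TPM in control cells. CHCHD6 averaged 7.81 ± 0.45 TPM in resistant and 10.8 ± 0.1 TPM in control cells. SAMM50, the outer membrane barrel assembly protein that binds MICOS, averaged 42.8 ± 9.6 TPM in resistant and 52.5 ± 1.9 TPM in control cells (SD, n = 2 each). APOOL was listed at 0 in both resistant libraries and at 0 and 0.02 TPM in controls.

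Among the fission genes only MIEF2 was called. DNM1L had 37.2 and 58.3 TPM in resistant libraries and 75.3 and 75.9 TPM in controls (log2 change -0.69, SE 0.41, adjusted p = 0.304). Both resistant libraries were lower, but they differed from each other by more than the nearer one differed from the controls. The adaptor FIS1 had 108 and 86.4 TPM in resistant and 88.0 and 95.2 TPM in control libraries, and the groups overlapped. The adaptor MFF had 134 and 136 TPM in resistant and 125 and 111 TPM in control libraries (log2 change 0.19, adjusted p = 0.401). MTFP1, an inner membrane fission protein, averaged 23.1 ± 8.0 TPM in resistant and 39.5 ± 0.8 TPM in control cells, and MTFR1, a mitochondrial fission regulator, averaged 55.7 ± 1.5 TPM in resistant and 78.0 ± 1.1 TPM in control cells (SD, n = 2 each). Their adjusted p were 0.26 and 0.187. The remaining 6 had log2 changes between -0.48 and 0.50 and adjusted p of 0.306 or more. These were GDAP1, the MTFR1 relatives MTFR1L and MTFR2, the actin regulators INF2 and SPIRE1, and DNM2, a dynamin best known from endocytosis.

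These calls depended on which libraries shared the spread. Without Huh7 control B1 no member was called, at adjusted p of 0.0634 for BNIP3, 0.0736 for PINK1 and 0.124 for MIEF2, with log2 changes of -0.74, 0.89 and 0.81. Without Huh7 control A1 or without resistant A1 BNIP3 alone was called, and without resistant B1 MIEF2 was lost (adjusted p = 0.104). Without Hep3B combination A1, or without combination B1, their gap no longer entered the common spread and 11 members were called in resistant cells. In both cases these included OPA1, DNM1L, MFN1, MIEF1, MTFR1, IMMT and PGAM5, all lower in resistant cells. Without the A1 libraries of the lenvatinib, combination and resistant groups 18 were called, with resistant B1 alone in its group and assumed to vary like the libraries of the other groups.

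Cell type markers moved with resistance. Of 9 hepatocyte markers 4 rose and none fell, against 18.9% of all tested genes called. Their summed level was 62200 and 54700 TPM in resistant libraries and 34400 and 35200 TPM in controls. Of 4 fibroblast markers, COL1A1 and COL3A1 rose to 7.05 and 9.07 TPM in resistant cells, against 0.687 and 0.58 TPM in controls, PDGFRB was not called, and DCN was at most 0.416 TPM in any library. The summed level of the 4 was 17.5 and 23.1 TPM in resistant libraries and 4.6 and 7.07 TPM in controls. LYZ averaged 68.0 TPM in resistant and 533 TPM in control cells. The summed level of 4 leukocyte markers, mostly LYZ, was 70.1 and 71.2 TPM in resistant and 551 and 519 TPM in control libraries. CD14 was not called, and PTPRC and CD3E were at most 0.518 and 0.292 TPM in any library. The summed level of 3 endothelial markers, mostly PECAM1, was 6.39 and 8.34 TPM in resistant and 11.9 and 11.5 TPM in control libraries. The part of all these markers in the changes of the mitochondrial genes was not tested.

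**Figure D2:**
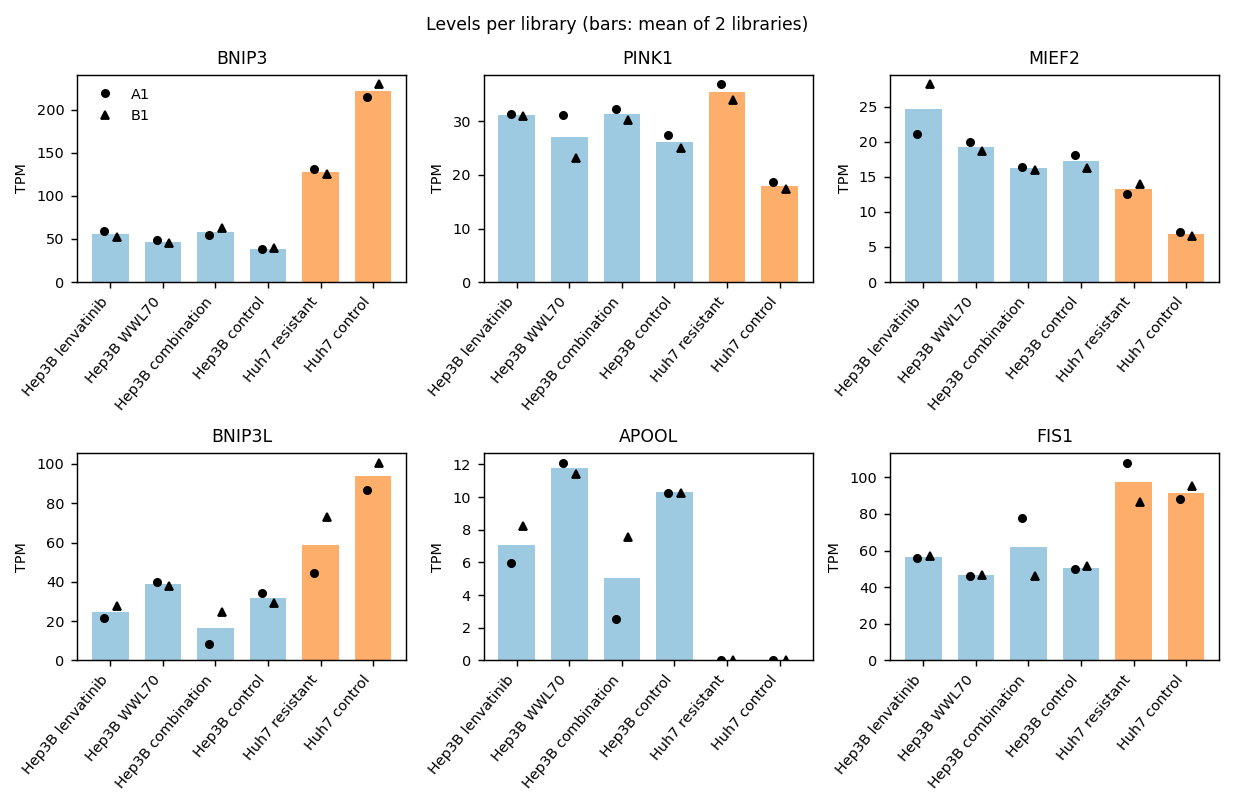
TPM of 6 members in each of the 12 libraries (circles A1, triangles B1; bars, mean of 2 libraries; blue Hep3B, orange Huh7; axes start at 0). BNIP3 is lower in resistant than in control Huh7 and higher with lenvatinib or the combination than in control Hep3B; APOOL is at 0 or 0.02 TPM in all 4 Huh7 libraries.

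Between untreated Hep3B and untreated Huh7 the mitophagy receptors BNIP3 and BNIP3L and the fission genes FIS1, MTFP1 and MTFR1L were lower in Hep3B, and MIEF2 and APOOL were higher. Of the 33 genes 7 were called, 2 higher and 5 lower in Hep3B, against 34.4% of all tested genes. Groups did not overlap for 15 members higher and 15 lower in Hep3B, against 49.9% and 35.2% of all tested genes. The median log2 difference was -0.08 over the members and 0.16 over all tested genes. BNIP3L was called in 18 of 22 alternatives, FIS1 in 17, MTFP1 in 16 and MTFR1L in 11. BNIP3 and MIEF2 were called in all 22 alternatives. APOOL was too, but it was tested through its Hep3B values alone and had to differ, so it is no support. These 3 were the members called when each of the 4 control libraries was left out in turn. Without either combination library 21 members were called.

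The mitophagy receptors were lower in Hep3B. BNIP3 had 38.3 and 39.0 TPM in Hep3B controls and 214 and 229 TPM in Huh7 controls. The Huh7 mean was 5.73 times the Hep3B mean, and the log2 difference was -2.49 (SE 0.15, adjusted p = 3.74e-06). BNIP3L had 34.5 and 29.4 TPM in Hep3B and 86.8 and 100.7 TPM in Huh7 (log2 difference -1.52, SE 0.42, adjusted p = 0.0213). PINK1 was the other way round at 27.5 and 25.0 TPM in Hep3B and 18.7 and 17.4 TPM in Huh7, a difference that was not called (adjusted p = 0.0652). FUNDC1 and PGAM5 differed by -0.21 and 0.25 on the log2 scale and were not called.

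Of 13 fission genes 1 was called higher and 3 lower in Hep3B, a share of 30.8% against 34.4% of all tested genes. Among the adaptors MIEF2 and FIS1 were called, and MIEF1 and MFF were not (limma, adjusted p of 0.314 and 0.0923). MIEF2 had 18.1 and 16.3 TPM in Hep3B and 7.09 and 6.55 TPM in Huh7, a ratio of 2.52 (log2 difference 1.22, SE 0.21, adjusted p = 0.00182). FIS1 had 50.1 and 51.4 TPM in Hep3B and 88.0 and 95.2 TPM in Huh7, a ratio of 0.554 (log2 difference -0.84, SE 0.23, adjusted p = 0.0211). MTFP1 was lower in Hep3B, at 16.3 and 13.2 TPM, than in Huh7, at 40.1 and 39.0 TPM (adjusted p = 0.0369), and MTFR1L was lower at 22.3 and 23.2 TPM in Hep3B than at 31.2 and 35.8 TPM in Huh7 (adjusted p = 0.0422). The other 9 fission genes were not called. Among these DNM1L averaged 45.2 ± 3.7 TPM in Hep3B and 75.6 ± 0.5 TPM in Huh7, and SPIRE1, an actin nucleator at contacts with the endoplasmic reticulum, averaged 10.7 ± 0.6 TPM in Hep3B and 23.2 ± 0.8 TPM in Huh7 (SD, n = 2 each), with adjusted p of 0.212 and 0.106.

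No fusion gene was called between the lines, with log2 differences from -0.58 for PHB1 to 0.66 for OPA1. Per transcript length, Hep3B held 3.11 and 3.55 PHB2 transcripts for each PHB1 transcript, against 1.69 and 1.75 in Huh7. MFN1 stood at 0.798 and 0.701 of MFN2 in Hep3B and at 0.568 and 0.538 in Huh7. These ratios were described and not tested.

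APOOL encodes the MICOS subunit MIC27, which binds cardiolipin (chrX:85003826-85093316, plus strand). It had 10.2 TPM and 10.3 TPM in Hep3B controls, and lay between 2.51 and 12.1 TPM in the other Hep3B libraries. In Huh7 it was listed at 0 in 3 libraries and at 0.02 TPM in control B1, so no fold is given. It passed the filter on low values only through Hep3B and had to differ, and its call (adjusted p = 9.97e-05) adds nothing to that. The other cristae genes were expressed in both lines. IMMT averaged 131 ± 5 TPM in Hep3B and 149 ± 2 TPM in Huh7, CHCHD3 averaged 85.5 ± 5.3 TPM in Hep3B and 93.0 ± 3.2 TPM in Huh7, CHCHD6 averaged 15.5 ± 2.1 TPM in Hep3B and 10.8 ± 0.1 TPM in Huh7, and SAMM50 averaged 79.1 ± 0.3 TPM in Hep3B and 52.5 ± 1.9 TPM in Huh7 (SD, n = 2 each). None of these 4 was called.

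**Figure D3:**
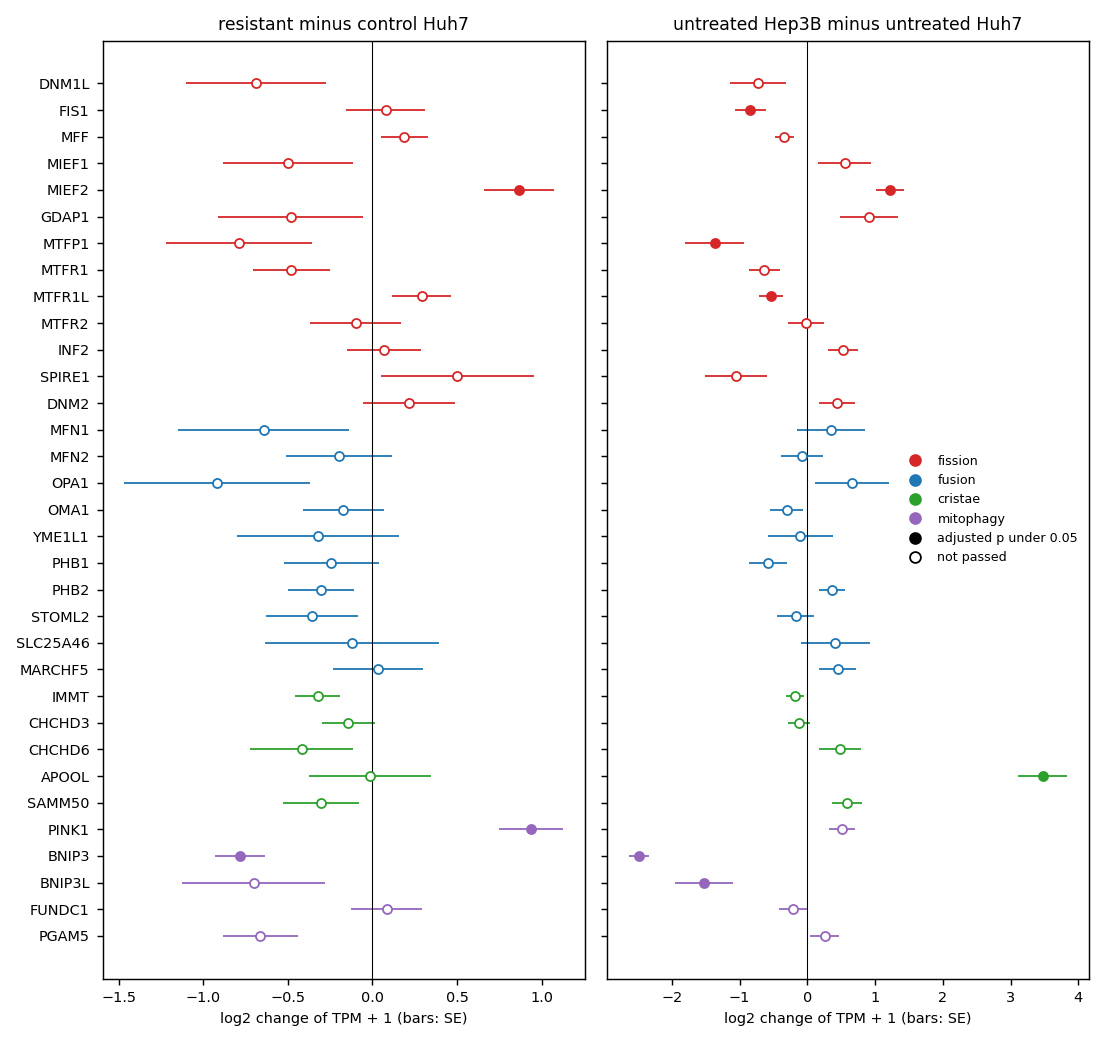
Log2 change of TPM + 1 for each member (points; bars, SE from limma), resistant minus control Huh7 on the left and untreated Hep3B minus untreated Huh7 on the right, coloured by role. Filled points passed an adjusted p under 0.05: PINK1, MIEF2 and BNIP3 on the left, and 7 members on the right, with BNIP3 at -2.49 and APOOL at 3.48.

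In Hep3B, lenvatinib moved no member past the test. None of 33 was called by limma, against 2.48% of all tested genes, and 2 reached an unadjusted p under 0.05. The median log2 change was -0.12 over the members and -0.07 over all tested genes. Lenvatinib and control libraries did not overlap for 10 members that were higher and 11 that were lower with lenvatinib, against 24.2% and 34.8% of all tested genes.

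BNIP3 came nearest to the threshold. It had 59.7 and 52.2 TPM with lenvatinib, against 38.3 and 39.0 TPM in controls, a log2 change of 0.52 (SE 0.15, adjusted p = 0.137). It was called in 5 of 23 alternative settings, with adjusted p from 0.00736 to 0.636. Without combination A1, or without combination B1, 2 members were called, BNIP3 and MTFR1. MIEF2 had 21.0 and 28.2 TPM with lenvatinib and 18.1 and 16.3 TPM in controls (log2 change 0.48, adjusted p = 0.354), and MIEF1 had 38.7 and 49.5 TPM with lenvatinib and 64.2 and 62.2 TPM in controls (adjusted p = 0.673). The MIEF2 to MIEF1 ratio was 0.543 and 0.569 with lenvatinib and 0.282 and 0.262 in controls. MTFR1 had 38.1 and 31.9 TPM with lenvatinib and 51.5 and 48.3 TPM in controls (adjusted p = 0.379).

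Among fusion genes OPA1 had 42.8 and 62.1 TPM with lenvatinib and 83.4 and 69.6 TPM in controls, and MFN1 had 31.5 and 44.9 TPM with lenvatinib and 54.0 and 52.4 TPM in controls. In both genes the A1 library was the lower of the lenvatinib pair. Over the members, the deviation of lenvatinib A1 from the control mean ran against transcript length (Spearman rho -0.50 over 33 genes that share 1 library), and over all tested genes rho was -0.34, whereas in lenvatinib B1 these values were 0.01 and 0.04. PINK1 averaged 31.2 ± 0.3 TPM with lenvatinib and 26.2 ± 1.8 TPM in controls, and CHCHD6 averaged 22.4 ± 2.7 TPM with lenvatinib and 15.5 ± 2.1 TPM in controls (SD, n = 2 each), neither called.

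With WWL70 no member was called by limma, no member reached an unadjusted p under 0.05, and 0.0147% of all tested genes were called. Groups did not overlap for 8 members higher and 8 lower, against 21.6% and 26.3% of all tested genes. Log2 changes ranged from -0.56 to 0.28 with a median SE of 0.27. The lowest was MTFP1 at 7.24 and 12.6 TPM with WWL70 and 16.3 and 13.2 TPM in controls. The highest was BNIP3L at 40.1 and 38.0 TPM with WWL70 and 34.5 and 29.4 TPM in controls. BNIP3 had 48.7 and 45.1 TPM with WWL70 and 38.3 and 39.0 TPM in controls (log2 change 0.27, SE 0.15, adjusted p = 1.0).

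With the combination, BNIP3 was the member that passed the test, at 54.8 and 62.1 TPM with the combination and 38.3 and 39.0 TPM in controls. Its log2 change was 0.58 (SE 0.15, adjusted p = 0.0452), and the value was above both controls in A1 and in B1. The call held in 8 of 23 alternative settings. It was lost, with no member called, without any one of the 10 libraries outside the combination group, at adjusted p from 0.0649 to 0.231, and with array weights, at 0.413. Without combination A1 BNIP3 alone was called, and without combination B1 25 members were. Called members were 1 of 33 against 8.85% of all tested genes, and groups did not overlap for 6 members higher and 14 lower with the combination, against 14.1% and 40.5% of all tested genes. Cell type markers moved with these exposures too. Of 9 hepatocyte markers 2 rose with lenvatinib and 5 with the combination, and none fell. The shares of all tested genes called were 2.48% and 8.85%. The summed level of the 9 was 55000 and 56300 TPM with the combination and 21000 and 20200 TPM in controls. LYZ averaged 7.86 TPM with lenvatinib and had 5.81 TPM in combination A1 and 4.59 TPM in B1, against a mean of 56.3 TPM in Hep3B controls. CD14, the other leukocyte marker tested, was not called in either comparison. Of 4 fibroblast markers PDGFRB alone was called with the combination, and it was lower. PDGFRB had 0.579 TPM in combination A1 and 3.29 TPM in B1, against 10.4 and 9.53 TPM in controls. COL1A1 and COL3A1 were not called, and DCN was at most 0.416 TPM in any library. The part of these markers in the BNIP3 values was not tested.

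Many other members lay far apart in A1 and B1, while some lay close together. Log2(TPM + 1) minus the control mean was 0.291 in A1 and 0.2 in B1 for PINK1. It was 0.098 and 0.126 for MTFR1L, and -0.061 and -0.099 for MIEF2. In A1 22 of 33 members lay below the Hep3B control mean, with a median deviation of -0.47, and in B1 20 did, with a median of -0.11. MFN1 had 10.8 TPM in A1 and 42.4 TPM in B1, against 54.0 and 52.4 TPM in controls. OPA1 had 18.6 TPM in A1 and 75.6 TPM in B1, against 83.4 and 69.6 TPM in controls. YME1L1 had 24.1 TPM in A1 and 88.8 TPM in B1, against 106 and 97.4 TPM in controls. For these 3 genes A1 was far below the controls, while B1 was inside the control range for OPA1 and closer to it for MFN1 and YME1L1. DNM1L was similar at 16.5 TPM in A1 and 46.7 TPM in B1, against 47.8 and 42.6 TPM in controls.

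Several members with short transcripts were higher in A1 than in controls. FIS1, with an annotated transcript of at most 1005 bases, had 77.8 TPM in A1 and 46.3 TPM in B1, against 50.1 and 51.4 TPM in controls. PHB1 had 246 TPM in A1 and 126 TPM in B1, against 131 and 120.3 TPM in controls. CHCHD6 had 35.4 TPM in A1 and 17.4 TPM in B1, against 14.0 and 17.0 TPM in controls. Other short members were lower in A1, such as FUNDC1 (1196 bases) and MTFR2 (1793 bases), with log2 deviations of -0.603 and -0.816. INF2, the longest member at 7578 bases, was higher in A1, with a deviation of 0.732. In A1 the 17 members with a transcript of at least 3364 bases had a median deviation of -1.40 and the 16 shorter ones a median of 0.12, and Spearman's rho of deviation against length was -0.62 over the 33 members and -0.52 over all tested genes. In B1 the medians were -0.11 and -0.07 and rho was -0.13 and 0.00. The part of transcript length in the falls of A1 was not tested beyond these values.

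Scaling shifted genes in general in this comparison, and the members moved with that shift. The median tested gene changed by -0.34 on the deposited TPM, and 11 members had a positive and 22 a negative log2 change. With median-ratio scaling, which sets the median tested gene to 0.00, 20 members had a positive and 13 a negative change, and BNIP3 had a log2 change of 1.01 (adjusted p = 0.0185). Of all called genes 27.6% were higher with the combination on the deposited TPM and 48.3% with median-ratio scaling. In the comparison of the lines the same scaling changed that share to 50.6%, against 61.4% on the deposited TPM, with 15 members positive and 18 negative under both.

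**Figure D4:**
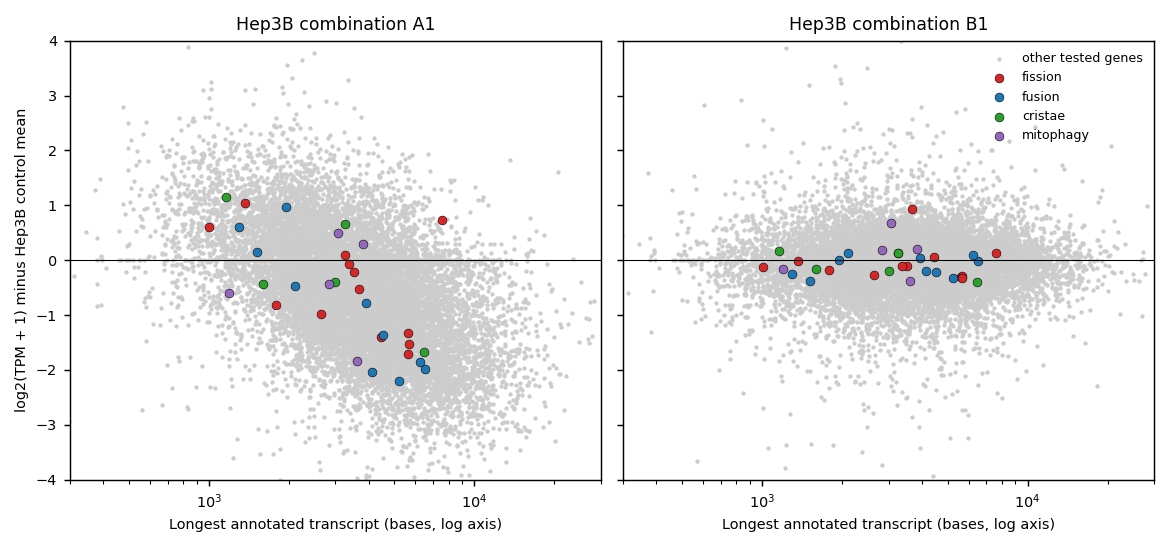
Deviation of each gene from the Hep3B control mean, as log2(TPM + 1), against the length of its longest annotated transcript in bases (log axis), for combination A1 on the left and B1 on the right; members are coloured by role over all other tested genes in grey. In A1 the 17 longer members have a median of -1.40 and the 16 shorter ones of 0.12; in B1 the medians are -0.11 and -0.07.

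Set against each compound alone, the combination called no member by limma. Against lenvatinib 0.022% of all tested genes were called and 2 members reached an unadjusted p under 0.05. Against WWL70 7.9% of all tested genes were called and 12 members reached an unadjusted p under 0.05, none of which passed after adjustment. BNIP3 had 54.8 and 62.1 TPM with the combination, against 59.7 and 52.2 TPM with lenvatinib and 48.7 and 45.1 TPM with WWL70. MIEF2 had 16.4 and 15.9 TPM with the combination, below both lenvatinib libraries at 21.0 and 28.2 TPM. Without combination B1, which leaves A1 alone in its group, 21 members were called against lenvatinib and 25 against WWL70, and without combination A1 none was called against either.

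BNIP3 differed in direction between resistance and exposure. Its log2 change was -0.78 in resistant against control Huh7 and 0.52 in lenvatinib-exposed against control Hep3B, the latter not called (adjusted p = 0.137, limma). For BNIP3 the difference of the 2 effects was -1.30 (SE 0.21, adjusted p = 0.0064, limma). It was the only one of the 33 genes called for this difference, against 6.3% of all tested genes, and it was called in all 22 alternative settings that could be fitted, with adjusted p up to 0.0415. Without combination A1, or without combination B1, CHCHD6 and PGAM5 were called beside it. The comparison sets 2 cell lines against each other and resistance against exposure at once, which cannot be told apart. The labels give no lenvatinib dose for the resistant cells. PINK1 had a log2 change of 0.94 with resistance and 0.25 with lenvatinib, a difference of 0.69 (SE 0.27, adjusted p = 0.208). MIEF2 had changes of 0.86 and 0.48, a difference of 0.38 (SE 0.29, adjusted p = 0.632). OPA1 had changes of -0.92 and -0.56, a difference of -0.36 (SE 0.78, adjusted p = 0.927).

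Wider lists of mitochondrial genes were counted in the same fits. In resistant Huh7, 2 of 21 other mitophagy genes rose and 1 fell, against 18.9% of all tested genes called. OPTN, an autophagy receptor, averaged 97.1 ± 0.7 TPM in resistant and 31.8 ± 3.6 TPM in control cells (log2 change 1.59, SE 0.18, adjusted p = 0.000392). TBK1, a kinase that phosphorylates OPTN, averaged 20.2 TPM in resistant and 39.4 TPM in control cells (adjusted p = 0.00756), and MAP1LC3B, an LC3 gene, averaged 151 TPM in resistant and 97.8 TPM in control cells (adjusted p = 0.0375).

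In the same comparison, with 18.9% of all tested genes called, 4 of 15 biogenesis genes fell and none rose, with a median log2 change of -0.57, beside -0.06 over all tested genes. They included TWNK, the mitochondrial DNA helicase, at 9.92 TPM in resistant and 20.8 TPM in control cells (adjusted p = 0.00996), the coactivator PPRC1 at 25.0 TPM in resistant and 41.5 TPM in control cells (adjusted p = 0.0134), and TFB1M, a mitochondrial rRNA methyltransferase, at 5.08 TPM in resistant and 9.73 TPM in control cells (adjusted p = 0.0247). Of 16 import and matrix genes 4 fell and none rose, among them the chaperonin HSPD1 at 376 TPM in resistant and 838 TPM in control cells (adjusted p = 0.00224), its partner HSPE1 at 222 TPM in resistant and 371 TPM in control cells (adjusted p = 0.0355) and the channel VDAC3 at 193 TPM in resistant and 292 TPM in control cells (adjusted p = 0.0218). None of 19 other fission and fusion regulators, 13 mitochondrially encoded genes, 15 cytosolic ribosomal protein genes, 8 cardiolipin synthesis genes and 5 transport genes was called by limma there. Of 10 other MICOS and SAM complex genes 1 fell, and of 10 stress signalling genes 1 rose.

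Other targets of hypoxia-inducible factors were called in both directions. In resistant Huh7, where BNIP3 fell, 2 of 12 rose and 2 fell, against 18.9% of all tested genes called. NDRG1 averaged 313 TPM in resistant and 86.5 TPM in control cells (adjusted p = 0.0036), ADM averaged 31.4 TPM in resistant and 15.1 TPM in control cells (adjusted p = 0.0128), and the glucose transporter SLC2A1 averaged 39.0 TPM in resistant and 94.6 TPM in control cells (adjusted p = 0.00716). Between the lines, where BNIP3 was lower in Hep3B, 2 of 12 were higher and 6 lower in Hep3B, against 34.4% of all tested genes called, with SLC2A1 at 6.06 TPM in Hep3B and 94.6 TPM in Huh7 (adjusted p = 6.22e-06), PFKFB4 at 5.77 TPM in Hep3B and 26.9 TPM in Huh7 (adjusted p = 0.000104), and CA9 at 10.9 TPM in Hep3B and listed at 0 and 0.192 TPM in Huh7. Lenvatinib in Hep3B, with BNIP3 not called, gave 1 rise (NDRG1, 88.3 TPM with lenvatinib and 15.4 TPM in controls, adjusted p = 0.00731) and 1 fall (CA9, 3.43 TPM with lenvatinib and 10.9 TPM in controls, adjusted p = 0.0224), against 2.48% of all tested genes called. The combination against control gave 1 rise and 2 falls, against 8.85% of all tested genes called. NDRG1 had 53.6 TPM in combination A1 and 112 TPM in B1, against 16.9 and 13.8 TPM in controls. CA9 had 1.5 and 1.53 TPM with the combination, against 11.5 and 10.2 TPM in controls, and VEGFA had 55.9 TPM in A1 and 149 TPM in B1, against 316 and 316 TPM in controls. No gene of this list was called with WWL70 by limma.

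Between the untreated lines 7 of 10 stress signalling genes were called, all 7 higher in Hep3B, against 34.4% of all tested genes. CHAC1 averaged 96.5 TPM in Hep3B and 4.01 TPM in Huh7 (adjusted p = 1.93e-06), DDIT3 averaged 120 TPM in Hep3B and 21.0 TPM in Huh7 (adjusted p = 0.000233), and TRIB3 averaged 244 TPM in Hep3B and 75.0 TPM in Huh7 (adjusted p = 0.000574). Of 19 other fission and fusion regulators 3 were higher and 3 lower in Hep3B, among them the inner membrane protease AFG3L2 at 37.0 TPM in Hep3B and 121 TPM in Huh7 (adjusted p = 9.55e-05). Of 21 other mitophagy genes 1 was higher and 2 lower in Hep3B, of 15 biogenesis genes 3 and 2, of 16 import and matrix genes 0 and 4, and of 8 cardiolipin genes 2 and 2. With the combination in Hep3B, 2 of 21 other mitophagy genes rose and 2 fell, against 8.85% of all tested genes called. In that comparison 2 of 10 stress signalling genes fell, 1 of 15 biogenesis genes fell, and of 16 import and matrix genes 1 rose and 1 fell. OPTN had 86.7 and 72.9 TPM with the combination and 46.7 and 45.0 TPM in controls (adjusted p = 0.0331), and SQSTM1, the receptor p62, had 503 and 514 TPM with the combination and 326 and 338 TPM in controls (adjusted p = 0.0296). NBR1, another autophagy receptor, had 28.4 and 70.2 TPM with the combination and 127 and 126 TPM in controls (adjusted p = 0.0366), with A1 again the lower library.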

How the data were processed

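Messenger RNA was captured on beads from Trizol-extracted RNA and sequenced on a NovaSeq X Plus, per the labels' protocols. The authors deposited 1 table of TPM for 20307 identifiers in 12 columns. Per the submitters' processing notes, fastp 0.18.0 was among the tools and hg38 was the build; an aligner, a quantifier and an annotation release were not given in the sources used here. TPM keeps no depth, so no counting interval was derived.

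Symbols came from a table of gene names, coordinates and transcript lengths from GENCODE 29. Values were analysed as log2(TPM + 1), which understates changes of low genes, for 13645 genes with at least 1 TPM in at least 2 libraries. All 12 libraries entered a single limma fit (limma 3.58.1, R 4.3.3) of group means with the variance following intensity (6 residual degrees of freedom, prior 2.91). The p-values were adjusted over all tested genes in each of 8 comparisons. The fit was also run on simulated data in which every library had the same spread and no length trend. That run cannot show how the fit behaves with a library that stands apart, such as combination A1. An exact permutation of 2 against 2 cannot go below p = 0.333. All 33 members are named; of each wider list (11 lists, 144 genes) at most 3 called genes with the smallest adjusted p are named where at least 3 or over 10% were called. The members and lists were chosen with earlier results of these data known, and 1 gene of a wider list is not reported here. Alternatives changed the pseudocount, filter, scaling, length trend, weights, replicate block and libraries used. Spearman correlations with length describe 1 library each.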

Additional observations from a re-analysis of the deposited data

Results flagged for a closer look

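BNIP3 stood out because the effect of resistance in Huh7 and the effect of lenvatinib in Hep3B differed in a direct test, by -1.30 on the log2 scale (adjusted p = 0.0064, limma). Both resistant libraries (132 and 125 TPM) lay below both Huh7 controls (214 and 229 TPM), as did 36.7% of all tested genes. Both lenvatinib libraries (59.7 and 52.2 TPM) lay above both Hep3B controls (38.3 and 39.0 TPM), as did 24.2% of all tested genes. The rise with lenvatinib was not called on its own (adjusted p = 0.137, limma). The lines also differ in how much BNIP3 they hold without drug, and the part of the cell line in the difference was not tested.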

How the results depend on the processing

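Counts of called members were recomputed under 23 alternatives (22 for comparisons that span the lines, where a fit within each line is not possible); no value changed sign among the called members. Leaving out 1 library at a time gave 0 to 2 members for lenvatinib, 0 to 25 for the combination against control, 0 to 21 against lenvatinib and 0 to 25 against WWL70, 0 to 11 for resistance, 3 to 21 between the lines and 1 to 3 for the difference of effects. The highest combination counts arose without combination B1, with A1 assumed to vary like the other groups. Without the A1 libraries of lenvatinib, combination and resistant cells, which leaves 1 library in each, the counts were 7 (lenvatinib), 6 (combination against control), 8 (against WWL70), 18 (resistance), 27 (between the lines) and 7 (difference). With array weights they were 3, 0, 0, 8, 27 and 3 in that order, and with the length trend removed 1 for lenvatinib, 2 against WWL70, 5 for resistance and 13 between the lines. The combination call of BNIP3 was lost, leaving 0, after rescaling without mitochondrially encoded genes, in limma without trend, with array weights, in a fit within each line and with the replicate block (adjusted p = 0.0503). WWL70 gave 0 members under every alternative. The cause of these shifts was not tested beyond the smaller common spread without combination A1 or B1.

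Over all tested genes the main counts and their lowest and highest values under these alternatives were 338 (28 to 2634) for lenvatinib, 1208 (56 to 8669) for the combination against control, 2579 (1249 to 6462) for resistance and 4688 (2952 to 9472) between the lines.

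Library letters were not taken as pairs, since deviations of same-lettered libraries correlated above 0.1 in 3 of 15 pairs of groups. These were lenvatinib with combination (0.681), lenvatinib with resistant (0.616) and combination with resistant (0.739), the 3 groups whose A1 libraries ran against transcript length. Depth is unknown, and 2 libraries a group limit every call.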

Other observations

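APOOL lay in a run of genes that were listed at or near 0 in Huh7, a pattern picked after its values were seen. Among genes with at least 1 TPM in Hep3B controls, APOOL and 10 others form an unbroken run on the X chromosome, its ends set by these values, and the 11, from BRWD3 (start 80670854, GENCODE 29 on GRCh38) to DIAPH2 (end 97604997), were all under 0.5 TPM in all 4 Huh7 libraries. They include ZNF711 at 21.7 TPM, CHM at 21.0 TPM and SH3BGRL at 16.8 TPM in Hep3B controls, and 7 of the 11 were at exactly 0 in every Huh7 library. Of 22 identifiers listed between these positions none reached 0.5 TPM in a Huh7 library, the highest being DIAPH2 at 0.286 TPM. The expressed genes on either side were present in Huh7, with TAF9B at 16.3 and 14.3 TPM and TSPAN6 at 46.4 and 42.5 TPM in Huh7 controls. Of all 12464 genes with at least 1 TPM in Hep3B controls, 343 (2.75%) were under that limit in every Huh7 library, and of 391 on the X chromosome 48 (12.3%). DNA copy number was not measured here.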
